A study of Mus musculus with 8 samples.

Results

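The endothelial identity genes are 31 genes that mark vascular endothelial cells, the cells that line every blood vessel, and they were measured in wire-injured carotid arteries that lacked or carried miR-126, a microRNA made mainly by endothelial cells. They were picked by the gene names printed in the array files, with Eltd1 and Gpr116 given here under their current names Adgrl4 and Adgrf5, and each gene was read from its brightest probe. All 31 genes had a probe and passed the filter on dim probes, out of 23830 genes or transcripts tested. The arteries came from 4 miR-126-/- ApoE-/- mice and 4 miR-126+/+ ApoE-/- mice, with 1 array for each mouse. Both groups lacked apolipoprotein E, which raises plasma cholesterol, and both were fed a western-type diet. All mice were female, 6 weeks old and of mixed genetic background, per the labels, and the injured artery was taken 14 days after the wire was used. In what cells or by what construct miR-126 was removed is not given in the sources used here, nor whether mice of the 2 genotypes were littermates.

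Passing a wire through an artery scrapes off its endothelium, and in the following weeks endothelial cells spread back over the surface while smooth muscle cells build a neointima beneath them. The genes that give endothelial cells their identity fall into a few working groups: junction proteins that seal neighbouring cells, sialic acid-rich surface proteins that face the blood, receptors that set vessel stability, and transcription regulators of the ETS, SOX, GATA, LIM and basic helix-loop-helix families that keep the programme switched on. miR-126 lies in an intron of Egfl7, an endothelial secreted protein, and is known for sustaining growth factor signalling in endothelial cells and for its place in endothelial repair. The comparison asks how these genes stand in the injured artery when miR-126 is missing.

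The microRNA whose loss defines the groups is shown first. Its mature strand is written 5′ to 3′ with the seed, bases 2 to 8, in capitals, from RefSeq on build GRCm38.p6 (chr2:26591402-26591423, plus strand).
mmu-miR-126a-3p: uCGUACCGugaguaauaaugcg

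The 5 endothelial genes whose miR-126-/- values all lay above the miR-126+/+ values are Adgrl4, Tal1, S1pr1, She and Tie1, and RefSeq promoters were at hand for 4 of them. The 250 bases before each start site are printed 5′ to 3′ on the gene's strand, with every AGGAAG on either strand in capitals, since AGGAAG holds the core letters bound by ETS factors, a family that many endothelial promoters use. The positions on GRCm38.p6 are chr3:151437632-151437881, plus strand, for Adgrl4, chr4:115056176-115056425, plus strand, for the upstream start of Tal1, chr3:89831120-89831369, plus strand, for She and chr4:118489850-118490099, minus strand, for Tie1.
Adgrl4: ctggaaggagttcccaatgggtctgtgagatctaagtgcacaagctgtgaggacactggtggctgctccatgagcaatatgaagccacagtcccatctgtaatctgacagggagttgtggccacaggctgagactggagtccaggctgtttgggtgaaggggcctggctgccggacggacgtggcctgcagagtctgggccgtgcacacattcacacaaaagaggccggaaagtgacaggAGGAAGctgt
Tal1: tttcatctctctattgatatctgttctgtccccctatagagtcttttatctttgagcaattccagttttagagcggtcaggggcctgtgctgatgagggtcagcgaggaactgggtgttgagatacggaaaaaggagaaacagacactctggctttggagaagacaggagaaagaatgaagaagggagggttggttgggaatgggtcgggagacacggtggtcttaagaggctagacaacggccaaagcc
She: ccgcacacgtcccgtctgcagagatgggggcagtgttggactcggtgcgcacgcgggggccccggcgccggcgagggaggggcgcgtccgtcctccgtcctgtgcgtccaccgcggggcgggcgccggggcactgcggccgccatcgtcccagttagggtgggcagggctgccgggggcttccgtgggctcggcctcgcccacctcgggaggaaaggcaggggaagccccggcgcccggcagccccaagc
Tie1: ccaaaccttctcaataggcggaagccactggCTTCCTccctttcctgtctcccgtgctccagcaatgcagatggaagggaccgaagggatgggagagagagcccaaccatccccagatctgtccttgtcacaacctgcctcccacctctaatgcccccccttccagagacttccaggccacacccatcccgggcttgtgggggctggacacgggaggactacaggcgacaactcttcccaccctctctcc

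AGGAAG stood in the Adgrl4 and Tie1 windows and not in the Tal1 and She windows shown. RefSeq promoters were found for 16 of the 31 genes, 19 promoters in all, and 8 of the 19 (42.1%) held AGGAAG on either strand, against 29.5% of all 32851 promoters of the same length. The SOX letters AACAAT stood in 21.1% of the 19 and 9.42% of all promoters, the GATA letters AGATAA in 10.5% and 9.99%, the E-box CAGATG, a letter order bound by TAL1, in 15.8% and 14.4%, and the forkhead letters TAAACA in 5.26% and 12%. CCGGAAG, a longer ETS word, stood in 0 of the 19 and in 6.91% of all promoters. AGGAAG and CCGGAAG overlap by the letters GGAAG, and all words were searched on both strands. These are letter matches in a window, and no binding was measured.

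Signal is given as log2 of the array's processed intensity minus that array's 75th percentile, so that 0 is the level of a bright probe on that array. Levels are compared between mice for the same probe only. All 8 arrays lay on 1 slide and were read in 1 scan, with 55.9% to 61.5% of probes above background, a 75th percentile of 518 to 736 intensity units, 0 saturated spots and correlations between arrays of 0.959 to 0.987. On that slide miR-126-/- samples took row 2 and miR-126+/+ samples row 1, so row and genotype cannot be told apart. Spatial trend, as the scanner software scores it, was 2.35 to 3.04 on miR-126-/- arrays and 2.05 to 2.25 on miR-126+/+ arrays, and its part in the results was not tested. Skeletal muscle markers stood apart on 1 array of each genotype: miR-126-/- 1 had a centred log2 mean of 2.93 and miR-126+/+ 2 had 2.46, where the other 6 arrays ran from -1.78 to 0.35. On array miR-126-/- 4, 117 spots that were bright on the other arrays were dim, against at most 24 on any other array. The dim area drawn around most of them spans 800 spots, not all of them dim, and held the probes of 0 of the 31 genes. Precision is limited by the 4 arrays of each genotype.

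Most of the endothelial genes were somewhat higher in the miR-126-/- arteries, and none of them passed the test over all genes. Of the 31, 29 had a higher mean in miR-126-/- arteries and 2, Mmrn1 and Gata2, a lower one, where 51.7% of all genes had a difference above 0. The median difference was 0.29 log2 units, against 0.0076 over all genes tested. With limma and Benjamini-Hochberg adjustment 0 of the 31 had an adjusted p under 0.05, against 0.0965% of all genes (23 genes, 13 of them higher and 10 lower), and the lowest adjusted p among the 31 was 0.0964, for Adgrl4. At an unadjusted p under 0.05, 11 of the 31 (35.5%) were higher, against 6.76% of all genes, and 0 were lower, against 3.42%. The genotypes did not overlap, with miR-126-/- the higher, for 5 of the 31 (16.1%), against 4.04% of all genes. A difference above 0.2 was found for 21 of the 31 (67.7%) and for 20.1% of all genes. The 31 genes were read on the same 8 arrays, so these shares do not rest on 31 separate observations.

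**Figure D1:**
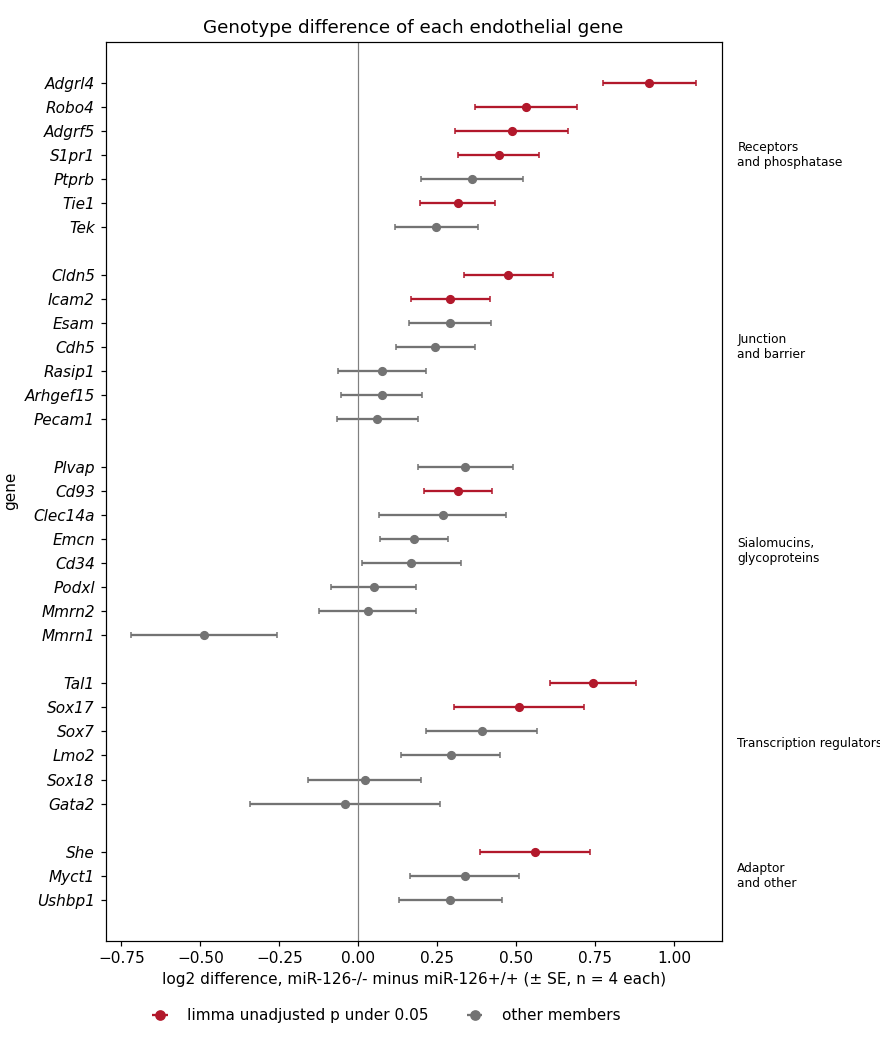
Log2 difference (miR-126-/- minus miR-126+/+) of each of the 31 endothelial genes, with bars of ± 1 SE from the fit (4 mice per genotype), grouped by role; red marks genes with an unadjusted limma p under 0.05. The points lie between -0.49 for Mmrn1 and 0.92 for Adgrl4, and 29 of the 31 lie right of 0.

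**Figure D2:**
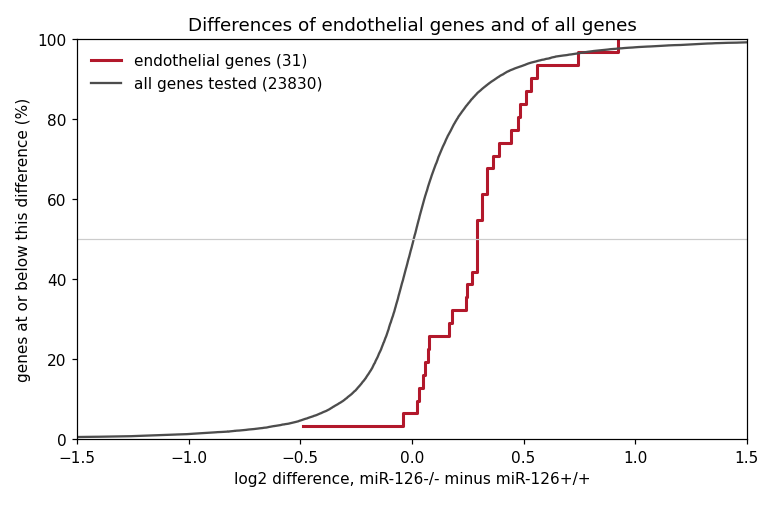
Share of genes (percent, vertical axis) whose log2 difference is at or below the value on the horizontal axis, for the 31 endothelial genes (red steps) and for all 23830 genes tested (grey line). The red steps cross 50% at 0.29 and the grey line near 0.

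All 31 genes were above background on all 8 arrays, so their transcripts were measurable in every artery of both genotypes. In whole-artery RNA, more endothelial cells, more transcript per endothelial cell and transcript from other cells of the sample cannot be told apart.

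The receptors gave the highest median of the role groups. All 7 genes of this group had a higher mean in miR-126-/- arteries, with a median difference of 0.44 log2 units. At an unadjusted p under 0.05, 5 of the 7 were higher, against 6.76% of all genes. Adgrl4, an adhesion-type G protein-coupled receptor of endothelial cells, had log2 signals of 0.40, 1.02, 0.66 and 0.79 in the 4 miR-126-/- arteries, against -0.25, -0.36, -0.19 and -0.0059 in the 4 miR-126+/+ arteries. Every miR-126-/- artery lay above every miR-126+/+ artery, and the lowest miR-126-/- value was still 0.41 log2 units above the highest miR-126+/+ value. The difference was 0.92 ± 0.15 (SE), or 1.89-fold, with an adjusted p of 0.0964 in limma and an exact permutation p of 0.0286, the smallest that the 70 arrangements of 4 against 4 arrays allow. Every gene without overlap gets this permutation p, which is not adjusted over genes. Here and for the genes below it restates the lack of overlap and adds no further support. Its probe lies at chr3:151207470-151207529 on mm9, the build of the array files.

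S1pr1, the receptor through which sphingosine-1-phosphate tightens the endothelial barrier, had 2.10, 2.48, 2.05 and 2.13 in miR-126-/- mice, against 1.79, 1.77, 1.90 and 1.53 in miR-126+/+ arteries. Its genotypes did not overlap, and mouse miR-126-/- 2 stood well above the other 3 of its group. Its difference was 0.44 ± 0.13 (SE), with a limma adjusted p of 0.278 and an exact permutation p of 0.0286 (probe at chr3:115414020-115414079 on mm9). Tie1, an orphan receptor tyrosine kinase that pairs with Tek, had 1.99, 2.38, 2.07 and 2.21 in miR-126-/- arteries and 1.91, 1.65, 1.86 and 1.97 in miR-126+/+ arteries. These did not overlap either, but the gap between the lowest miR-126-/- artery and the highest miR-126+/+ artery was only 0.023 log2 units. The Tie1 difference was 0.31 ± 0.12 (SE; adjusted p = 0.418 in limma), a fold of 1.24, and its probe lies at chr4:118144132-118144191 (mm9).

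Robo4, an endothelial Roundabout receptor that stabilises vessels, had 4.00, 4.49, 4.15 and 4.11 in miR-126-/- mice, against 4.03, 3.41, 3.63 and 3.57 in miR-126+/+ arteries. One miR-126+/+ artery, mouse 1, reached the lowest miR-126-/- value and overlapped by it alone. The difference was 0.53 ± 0.16 (SE; limma adjusted p = 0.306). Adgrf5, another adhesion-type G protein-coupled receptor, had 1.58, 2.18, 1.82 and 1.69 in miR-126-/- mice, against 1.34, 1.18, 1.09 and 1.71 in miR-126+/+ arteries, with mouse 4 of the miR-126+/+ group inside the miR-126-/- range. Its difference was 0.49 ± 0.18 (SE; limma adjusted p = 0.406). Ptprb, the endothelial phosphatase that acts on Tek and on VE-cadherin, averaged 4.53 ± 0.23 in miR-126-/- arteries and 4.17 ± 0.25 in miR-126+/+ arteries (SD, n = 4 each), and Tek, the angiopoietin receptor, 0.45 ± 0.17 in miR-126-/- arteries and 0.20 ± 0.20 in miR-126+/+ arteries. Their differences of 0.36 ± 0.16 and 0.25 ± 0.13 (SE) had unadjusted p values above 0.05.

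**Figure D3:**
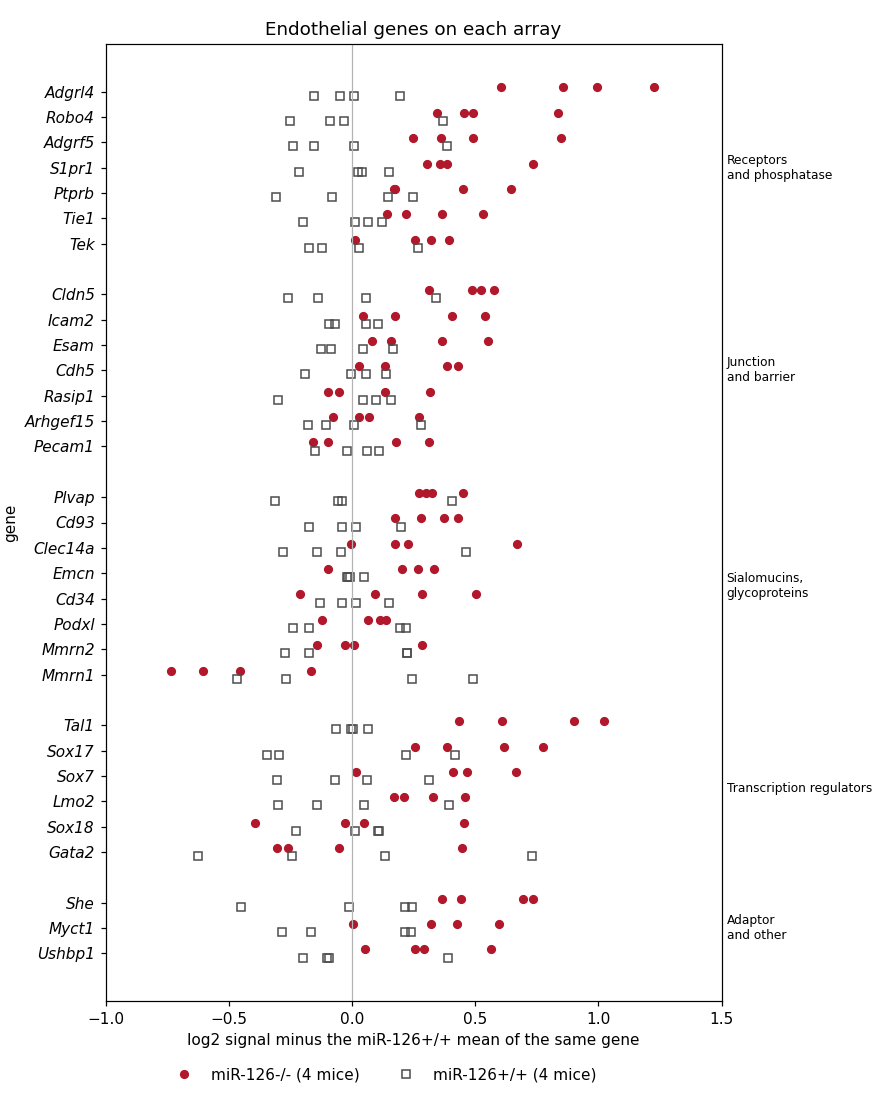
Log2 signal of each endothelial gene on each array minus the miR-126+/+ mean of that gene, with red circles for the 4 miR-126-/- mice and open squares for the 4 miR-126+/+ mice, in the role groups used in the text. The circles lie right of all squares for Adgrl4, S1pr1, Tie1, Tal1 and She, and for Mmrn1 all 4 circles lie left of 0.

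All 7 junction and barrier genes likewise had a higher miR-126-/- mean, but by less, with a median of 0.24 log2 units. Of the 7, 2 were higher at an unadjusted p under 0.05, against 6.76% of all genes. Cldn5, the claudin of endothelial tight junctions, had 3.94, 4.201, 4.11 and 4.15 in miR-126-/- mice, against 3.68, 3.48, 3.36 and 3.97 in miR-126+/+ arteries. Only mouse 4 of the miR-126+/+ group reached the miR-126-/- range, and the miR-126-/- arteries were close to each other. The difference was 0.48 ± 0.14 (SE), or 1.39-fold, with a limma adjusted p of 0.298. Icam2, an adhesion molecule that endothelial cells carry at rest, had 4.14, 4.37, 4.01 and 4.50 in miR-126-/- mice, against 4.02, 3.90, 4.07 and 3.87 in miR-126+/+ arteries. Mouse 3 of the miR-126-/- group lay below the 2 highest miR-126+/+ arteries, and the difference was 0.29 ± 0.13 (SE; limma adjusted p = 0.487).

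The other 5 junction genes had an unadjusted p above 0.05, among them the proteins most used to mark endothelium. Cdh5, VE-cadherin of the adherens junction, had 2.68, 3.04, 2.79 and 3.08 in miR-126-/- mice, against 2.71, 2.46, 2.79 and 2.65 in miR-126+/+ arteries. Esam, an immunoglobulin-type protein of tight junctions, averaged 2.90 ± 0.21 in miR-126-/- arteries and 2.61 ± 0.13 in miR-126+/+ arteries (SD, n = 4 each). The differences were 0.24 ± 0.12 for Cdh5 and 0.29 ± 0.13 for Esam (SE), and the Cdh5 groups overlapped through 2 miR-126+/+ mice. Pecam1, an adhesion molecule of platelets and endothelium, had 1.65, 2.06, 1.59 and 1.93 in miR-126-/- arteries and 1.86, 1.60, 1.73 and 1.81 in miR-126+/+ arteries. Its groups overlapped over most of their range, with a difference of 0.059 ± 0.13 (SE). Rasip1, a protein needed for vessel lumens, and Arhgef15, an endothelial guanine nucleotide exchange factor, differed by 0.075 ± 0.14 and 0.073 ± 0.13 (SE).

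Among the sialomucins and other surface glycoproteins 7 of 8 had a higher mean in miR-126-/- arteries, and the median was 0.17 log2 units. Only 1 of 8, Cd93, was higher at an unadjusted p under 0.05, against 6.76% of all genes. Cd93, a C-type lectin-like receptor of endothelial cells, had 5.77, 5.97, 6.02 and 5.88 in miR-126-/- mice, against 5.61, 5.42, 5.79 and 5.56 in miR-126+/+ arteries. The lowest miR-126-/- artery, mouse 1, lay just under the highest miR-126+/+ artery, and the difference was 0.31 ± 0.11 (SE; limma adjusted p = 0.365). Plvap, which forms the diaphragms of endothelial fenestrae and caveolae, had 4.86, 5.01, 4.88 and 4.83 in miR-126-/- mice, against 4.52, 4.25, 4.97 and 4.50 in miR-126+/+ arteries. The miR-126-/- arteries lay close together and mouse 3 of the miR-126+/+ group was inside their range, and the difference of 0.34 ± 0.15 (SE) had an unadjusted p above 0.05. Clec14a, like Cd93 a lectin-type receptor that binds Mmrn2, differed by 0.27 ± 0.20 (SE). The sialomucins Emcn, Cd34 and Podxl differed by 0.18 ± 0.11, 0.17 ± 0.16 and 0.049 ± 0.13 (SE). Mmrn2, an endothelial matrix protein and the partner of Cd93 and Clec14a, averaged 4.84 ± 0.18 in miR-126-/- arteries and 4.81 ± 0.26 in miR-126+/+ arteries (SD, n = 4 each; difference 0.03 ± 0.15, SE).

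Mmrn1, multimerin of platelets and of lymphatic endothelium, was the exception in direction. It had 2.01, 2.29, 1.73 and 1.86 in miR-126-/- mice, against 2.70, 2.19, 1.99 and 2.95 in miR-126+/+ arteries. Mice 1 and 4 of the miR-126+/+ group stood above all miR-126-/- mice and mice 2 and 3 stood among them, and the difference of -0.49 ± 0.23 (SE) had a limma adjusted p of 0.538. Mmrn1 also belongs to a list of 10 lymphatic endothelial markers, of which 9 had a lower mean in miR-126-/- arteries. Of the 10, 3 (Flt4, Reln and Prox1) were lower at an unadjusted p under 0.05, against 3.42% of all genes. The median difference of that list was -0.45 log2 units. Flt4, the receptor for lymphatic growth factors, had -2.49, -2.38, -2.71 and -2.22 in miR-126-/- arteries and -1.98, -1.94, -1.78 and -1.59 in miR-126+/+ arteries, without overlap (difference -0.62 ± 0.14, SE; limma adjusted p = 0.188). Reln, secreted by lymphatic endothelium, and Prox1, its defining transcription factor, differed by -1.20 ± 0.34 and -0.64 ± 0.23 (SE; limma adjusted p = 0.27 and 0.396). Both overlapped between the genotypes. Flt4, Reln and Prox1 were read from dim probes, with means of -2.45, -3.42 and -3.33 in miR-126-/- arteries. The bright lymphatic marker Ccl21a averaged 6.88 in miR-126-/- arteries and 6.99 in miR-126+/+ arteries, with overlap (difference -0.11 ± 0.11, SE). Averaged per array after centring each gene, the lymphatic list had -0.25, -0.25, -0.20 and -0.14 in miR-126-/- mice, against 0.28, 0.13, 0.0043 and 0.42 in miR-126+/+ arteries. The genotypes did not overlap in this mean, which was lower in miR-126-/- arteries, and 0 of the 10 genes passed the test over all genes. Flt4 and Nrp2 are also on the list of other endothelial genes given below.

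Of the 6 transcription regulators, 5 had a higher mean in miR-126-/- arteries, with a median of 0.34 log2 units. Tal1 and Sox17, 2 of the 6, were higher at an unadjusted p under 0.05, against 6.76% of all genes. Tal1, a basic helix-loop-helix factor of blood and endothelial precursors, had 0.94, 1.23, 0.76 and 1.35 in miR-126-/- mice, against 0.27, 0.33, 0.32 and 0.39 in miR-126+/+ arteries. The miR-126+/+ arteries were nearly equal to each other and all lay below the miR-126-/- arteries, among which mice 2 and 4 were highest. The difference was 0.74 ± 0.14 (SE), or 1.67-fold, with a limma adjusted p of 0.144 and an exact permutation p of 0.0286 (probe at chr4:114744219-114744278 on mm9). Sox17, a SOX factor of arterial endothelium, had 0.78, 1.02, 0.65 and 1.17 in miR-126-/- mice, against 0.62, 0.10, 0.053 and 0.82 in miR-126+/+ arteries. The miR-126+/+ group was split, with mice 2 and 3 low and mice 1 and 4 near the miR-126-/- arteries, and the difference was 0.51 ± 0.20 (SE; limma adjusted p = 0.451).

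The related factors Sox7 and Sox18, of the same SOX subfamily as Sox17, did not reach that threshold. Sox7 averaged 0.54 ± 0.27 in miR-126-/- arteries and 0.15 ± 0.26 in miR-126+/+ arteries, and Sox18 2.12 ± 0.35 in miR-126-/- arteries and 2.10 ± 0.16 in miR-126+/+ arteries (SD, n = 4 each). Their differences were 0.39 ± 0.18 and 0.02 ± 0.18 (SE). Lmo2, the LIM protein that bridges TAL1 and GATA factors, averaged 3.65 ± 0.13 in miR-126-/- arteries and 3.36 ± 0.30 in miR-126+/+ arteries (SD, n = 4 each). Gata2, a zinc finger factor, averaged -0.31 ± 0.34 in miR-126-/- arteries and -0.27 ± 0.58 in miR-126+/+ arteries (SD, n = 4 each). The differences were 0.29 ± 0.16 for Lmo2 and -0.042 ± 0.30 for Gata2 (SE), so the Gata2 value is smaller than its error. Tal1, Lmo2 and Gata2 are also made by haematopoietic and mast cells. The list of markers for haematopoietic progenitors, mast cells and platelets had 4 of 14 genes higher and 10 lower in miR-126-/- arteries, with a median of -0.074. In that list 1 gene, Kit, was higher at an unadjusted p under 0.05 (0.48 ± 0.20, SE), near the share of all genes (6.76%). Its summed level, in units of each array's 75th percentile, was 45.6 to 73.6 in miR-126-/- arteries and 58.6 to 71.2 in miR-126+/+ arteries.

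The last group holds genes with no common function. All 3 had a higher mean in miR-126-/- arteries, with a median of 0.34. She, an SH2-domain adaptor, had 2.26, 2.63, 2.34 and 2.59 in miR-126-/- mice, against 2.11, 1.88, 1.44 and 2.14 in miR-126+/+ arteries. The genotypes did not overlap, and mouse 3 of the miR-126+/+ group was far below the other 3. The difference was 0.56 ± 0.17 (SE), or 1.47-fold, with a limma adjusted p of 0.317 and an exact permutation p of 0.0286 (probe at chr3:89662699-89662758 on mm9). Myct1, a membrane protein of endothelial cells, and Ushbp1 differed by 0.34 ± 0.17 and 0.29 ± 0.16 (SE), both at an unadjusted p above 0.05.

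A second probe gave a further reading of 8 of the genes on the same arrays, and 7 of the 8 second probes had the direction of the brightest one. The second Sox17 probe differed by 0.59 log2 units, without overlap of the genotypes, beside 0.51 for the brightest. Second probes gave 0.72 for Ushbp1, 0.44 for Ptprb, 0.33 for Clec14a, 0.26 for Myct1 and 0.24 for Plvap. For Arhgef15 the dimmer probe gave 0.55 where the brightest gave 0.073, so its result depends on the probe. For Cd34 the dimmer probe gave -0.06, the opposite side of 0 from 0.17.

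Single arrays held the extremes of many of the 31 genes. Their mean, after centring each gene over the 8 arrays, was -0.0071, 0.31, 0.056 and 0.21 in the miR-126-/- arteries, against -0.08, -0.27, -0.19 and -0.025 in the miR-126+/+ arteries, so the genotypes did not overlap, but miR-126-/- 1 and miR-126+/+ 4 stood only 0.018 apart. Array miR-126-/- 2 held the highest value of 17 of the 31 genes and lay above all miR-126+/+ arrays for 25, while miR-126-/- 1 held the highest value of 0 and lay above all miR-126+/+ arrays for 7. Array miR-126+/+ 2 held the lowest value of 10 genes and miR-126+/+ 3 of 9. The count of genes higher in miR-126-/- arteries at an unadjusted p under 0.05 was 11 with all arrays, beside 6.76% of all genes. It was 7 without miR-126-/- 2 (5.02% of all genes), 6 without miR-126+/+ 2 (5.46%) and 3 without both (4.18%). Mmrn1 was lower at that threshold without miR-126-/- 2 (-0.60), without miR-126+/+ 3 (-0.64) and without both miR-126-/- 2 and miR-126+/+ 2 (-0.69), with limma adjusted p of 0.602, 0.368 and 0.67. Leaving out other arrays raised the count without overlap, to 10 without miR-126-/- 1, 8 without miR-126+/+ 3 and 12 without miR-126+/+ 4, against 5 with all arrays and with 4.04% of all genes growing to 7.66%, 6.89% and 8.96%. Without the muscle-rich arrays miR-126-/- 1 and miR-126+/+ 2, 10 genes were higher at an unadjusted p under 0.05 (5.89% of all genes were), 10 did not overlap (8.86% of all genes) and the median was 0.29. Adgrl4, Tal1, S1pr1, Cldn5, Robo4 and She kept an unadjusted p under 0.05 whichever array was left out, and 24 of the 31 stayed higher in miR-126-/- arteries whichever array was left out. No share over all genes was computed for these counts, nor for the counts of highest, lowest or raised values on single arrays.

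Set against the mean of the 31 on its own array, a gene shows whether it differed more or less than the others. On that relative scale Adgrl4, Tal1 and She were still higher in all miR-126-/- arteries than in any miR-126+/+ artery, by 0.64, 0.46 and 0.28 log2 units. Mmrn1 and Pecam1 were lower in all miR-126-/- arteries, by differences of -0.77 and -0.22. The mean subtracted was itself higher in miR-126-/- arteries (0.14 against -0.14), so a gene with a difference near 0 comes out lower. Pecam1 without this step differed by 0.059, and its genotypes overlapped. The relative values of Pecam1 ran from 1.54 to 1.75 in miR-126-/- arteries and from 1.83 to 1.94 in miR-126+/+ arteries. The other 26 genes overlapped on this scale, and these values are a description with no test and no share over all genes beside them.

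Endothelial genes outside the 31 had a smaller median difference, and their mean per array overlapped between the genotypes. After centring each gene, that mean was -0.11 to 0.18 in miR-126-/- arteries and -0.15 to -0.024 in miR-126+/+ arteries. Of 39 such genes tested, 27 had a higher and 12 a lower mean in miR-126-/- arteries, with a median of 0.19 log2 units. At an unadjusted p under 0.05, 6 were higher and 2 lower, against 6.76% and 3.42% of all genes. The test over all genes was passed by 0 of them. Egfl7, the host gene of miR-126, had 6.30, 6.69, 6.40 and 6.64 in miR-126-/- mice, against 6.10, 5.76, 6.07 and 6.13 in miR-126+/+ arteries, without overlap (difference 0.49 ± 0.13, SE; limma adjusted p = 0.256). Whether its probe lies outside the deleted part is not given in the sources used here, so it does not check the label. Gimap6, a GTPase of lymphocytes and endothelium, differed by 0.64 ± 0.16 (SE; limma adjusted p = 0.234). The 30 ligands, junction partners and cofactors of the 31 genes had 13 higher and 17 lower, with a median of -0.0091. Among them 1 was lower at an unadjusted p under 0.05, against 3.42% of all genes. It was Rap1a, a small GTPase that signals to junctions (-0.64 ± 0.26, SE). Rap1a was read from a dim probe, at -4.18 in miR-126-/- arteries and -3.54 in miR-126+/+ arteries, and its genotypes overlapped. Among the 30, Sphk2, a kinase that makes the ligand of S1pr1, differed by 0.27 ± 0.13, and Spns2, the transporter that exports that ligand, by -0.15 ± 0.083 (SE).

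Markers of fat tissue were higher in miR-126-/- arteries too. Of 28 adipocyte markers, 26 had a higher mean in miR-126-/- arteries, with a median of 1.29 log2 units. At an unadjusted p under 0.05, 22 were higher, against 6.76% of all genes, and 0 passed the test over all genes. On all 8 arrays 27 of the 28 were above background. Their summed level, in units of each array's 75th percentile, was 792 to 1292 in miR-126-/- arteries, where miR-126+/+ arteries had 326 to 773. Averaged per array after centring they had 0.19, 0.34, 0.78 and 0.91 in miR-126-/- mice, against -1.07, -0.18, -1.04 and 0.076 in miR-126+/+ arteries. The markers of adipose capillaries, endothelium that takes up fat, had a median of 0.52, with 7 of 10 higher. At an unadjusted p under 0.05, 5 of the 10 were higher, against 6.76% of all genes. Their summed level was 262 to 497 in miR-126-/- arteries and 187 to 276 in miR-126+/+ arteries. Gpihbp1, which holds lipoprotein lipase on capillaries and is also counted among the other endothelial genes, was higher by 1.73 ± 0.24 and Tcf15, a factor of such capillaries, by 1.66 ± 0.29 (SE; limma adjusted p = 0.0577 and 0.127).

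**Figure D4:**
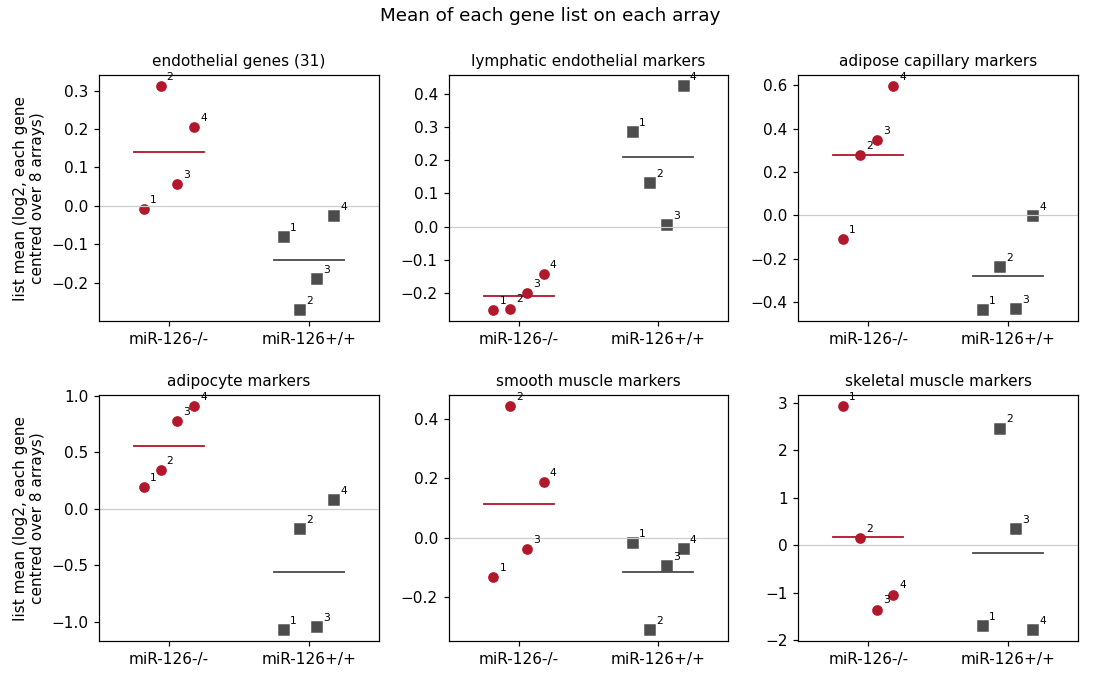
Mean of each gene list on each array (log2, each gene centred over the 8 arrays), with red circles for miR-126-/- mice, grey squares for miR-126+/+ mice, mouse numbers beside the points and a line at each group mean. The vertical scales differ between panels. The endothelial and lymphatic means separate the genotypes in opposite directions, and the skeletal muscle means are highest on miR-126-/- 1 (2.93) and miR-126+/+ 2 (2.46).

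With the adipocyte mean per array as a covariate, 27 of the 31 endothelial genes still had a difference above 0, with a median of 0.22, and 6 had an unadjusted p under 0.05, against 3.28% of all genes higher in that fit. The 6 were Adgrl4 (0.80 ± 0.25), Robo4 (0.82 ± 0.25), S1pr1 (0.69 ± 0.20), Tal1 (0.64 ± 0.24), Plvap (0.63 ± 0.23) and Mmrn2 (0.46 ± 0.18, SE). Of these, 4 were also among the 11 without the covariate. The differences of Cldn5 and She shrank to 0.22 ± 0.22 and 0.31 ± 0.29 (SE), those of Lmo2 and Tek to 0.005 ± 0.24 and 0.033 ± 0.21. In all, 15 of the 31 were nearer 0 than without the covariate. Errors were larger in this fit, as for Adgrl4, where the SE was 0.15 without the covariate. With the covariate, 0 of the 31 had a limma adjusted p under 0.05. The adipocyte mean itself did not overlap between the genotypes, so fat content and genotype cannot be fully told apart. With the adipose capillary mean as the covariate, which holds endothelial genes itself, 3 of the 31 had an unadjusted p under 0.05, against 2.01% of all genes higher, and the median was 0.16.

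**Figure D5:**
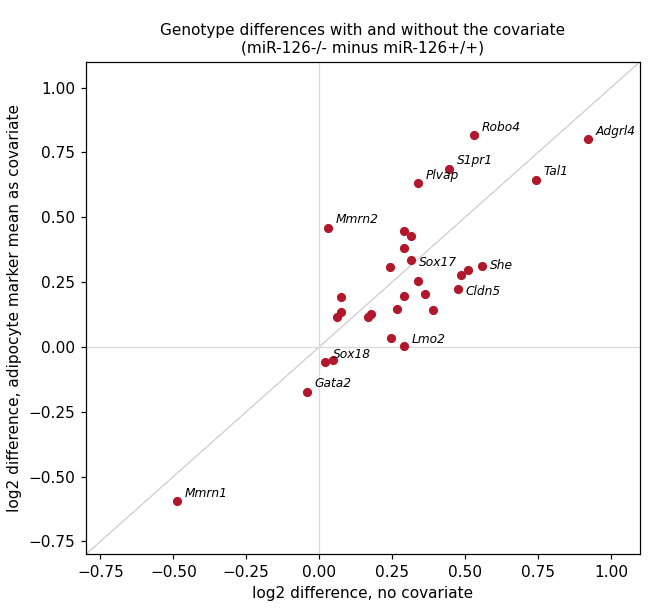
Log2 difference (miR-126-/- minus miR-126+/+) of each of the 31 endothelial genes in the fit without a covariate (horizontal) and with the adipocyte marker mean per array as a covariate (vertical); the diagonal marks equal values. Robo4, S1pr1, Plvap and Mmrn2 lie above the diagonal, while Cldn5, She, Sox17 and Lmo2 lie below it.

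Smooth muscle markers, which check the labelled tissue, were all 12 above background on all arrays, and had a median of 0.17, with 10 of 12 higher. Lmod1 alone, 1 of the 12, was higher at an unadjusted p under 0.05, near the share of all genes (6.76%). The shares of 6.76% higher and 3.42% lower over all genes also stand beside the counts of the lists below. The smooth muscle values by array were as follows. The smooth muscle mean was highest on miR-126-/- 2 (0.44) and lowest on miR-126+/+ 2 (-0.31), the same arrays as for the endothelial genes. The summed level of these markers was 411 to 673 in miR-126-/- arteries and 439 to 515 in miR-126+/+ arteries. Fibroblast markers had a median of 0.014, with 7 of 12 higher and 5 lower. At an unadjusted p under 0.05 and without overlap were 1 in each direction: Dcn, a small matrix proteoglycan, at -0.83 ± 0.20 and Col3a1, a fibrillar collagen chain, at 0.34 ± 0.14 (SE). Macrophage markers had a median of 0.0082, with 7 of 13 higher and 6 lower and 0 at an unadjusted p under 0.05. All 12 lymphocyte markers tested had a higher mean in miR-126-/- arteries, with a median of 0.76 and 4 at an unadjusted p under 0.05, among them Jchain of plasma cells (2.31 ± 0.36, SE; limma adjusted p = 0.0854). Skeletal muscle markers had a median of 0.29 over 21 genes, 0 of them at an unadjusted p under 0.05 in either direction, and the 4 erythroid markers tested a median of 0.069. What part smooth muscle or lymphocyte content has in the endothelial values was not tested.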

How the data were processed

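Per the labels' protocols, Agilent mouse arrays were hybridised with Cy3-labelled RNA made from 100 ng of total RNA per artery. Per the file headers, Feature Extraction 10.7.3.1 read 1 colour, and the authors deposited its processed signal, a background-subtracted intensity with no scaling between arrays. The series' deposited table repeats that intensity (column medians 41.7 to 57.5), with over 99.9% of probes within 0.1 log2 units of the scanner values.

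Control spots and spots marked as outliers were left out, spots of a probe were averaged, and each array's 75th percentile was subtracted on the log2 scale. Probes had to exceed background clearly on 3 or more of the 4 arrays of a genotype, and the brightest probe stood for its gene. Genotypes were compared over all 23830 genes by limma's lmFit and eBayes (limma 3.58.1, R 4.3.3; no covariate, two-sided, Benjamini-Hochberg, threshold 0.05), which was tested on simulated data, and single genes with an exact two-sided permutation test over 70 arrangements. Files were read with Python 3.11.15, numpy 2.4.6 and pandas 2.3.3 and figures drawn with matplotlib 3.10.9. Genes outside the 31 were named through RefSeq accessions (GRCm38.p6) where these matched, as for 26413 of the 55681 probes (47.4%). Probes without a match kept the gene name printed in the array files. Probe positions are on mm9, per the file headers, and promoter and microRNA positions on GRCm38.p6.

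The 31 genes and all other gene lists were chosen with earlier results of these data known, so no test was made over a list and no p was adjusted over a list alone. Genes with an unadjusted p under 0.05 or without overlap are given on every array. From each other list at most 3 genes of smallest p are named, besides Egfl7 and the bright lymphatic marker Ccl21a. Pecam1, Cdh5, Plvap and Mmrn1 are given on every array too, a choice made after their values were seen. The 4 replicate numbers shared by the genotypes did not pair the mice. The alternatives were other background corrections and normalizations, the deposited table, other filters, the mean of a gene's probes, an intensity trend, array weights, a replicate block, marker means as covariates, the dim area left out, and arrays left out in turn.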

Additional observations from a re-analysis of the deposited data

How the results depend on the processing

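Under 24 alternatives 0 of the 744 values of single endothelial genes had a limma adjusted p under 0.05, and the lowest was 0.0592, for Adgrl4 with array weights. Adgrl4 (0.63 to 1.03 log2 units) and Tal1 (0.53 to 0.84) had an unadjusted p under 0.05 under all 24, with adjusted p from 0.0592 and 0.0915 up to 0.9996. The direction held under all 24 for 21 of the 31 genes, a count for which no share over all genes was computed. The causes of the changes below were not tested.

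Against 23 genes called over the whole array, limma called 11 with quantile normalization, 12 from the deposited table, 9 with no filter, 6 with the stricter filter, 10 with the mean of a gene's probes, 67 with array weights and 11 with the skeletal muscle mean as a covariate. It called 0 with the replicate block (2196 at an unadjusted p under 0.05), 0 with the adipocyte mean (1066), and, in alternatives chosen after seeing the data, 0 with the adipose capillary mean (872), 0 without the pair of muscle-rich arrays, miR-126-/- 1 and miR-126+/+ 2 (2047), and 0 without miR-126-/- 2 and miR-126+/+ 2 (1692). Leaving out single arrays gave 0 (without miR-126-/- 2, with 1900 at an unadjusted p under 0.05) to 59 (without miR-126+/+ 4), with 5, 4, 15, 6, 3 and 11 for the others.

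Endothelial genes higher at an unadjusted p under 0.05 numbered 6 with the adipocyte mean (3.28% of all genes higher), 3 with the capillary mean (2.01%), 3 without miR-126-/- 2 and miR-126+/+ 2 (4.18%), and 6 to 16 with single arrays left out (5.02% to 8.66%), against 11 (6.76%). Mmrn1 was lower at that threshold with array weights (-0.54). The count higher without overlap was 10 without the 2 muscle-rich arrays (8.86% of all genes) and 5 to 12 with single arrays left out (4.84% to 8.96%), against 5 (4.04%). The median was 0.16 with the capillary mean and 0.24 to 0.34 with single arrays left out, against 0.29. The replicate numbers did not pair the mice (same-number correlations of 0.20, -0.28, -0.04 and 0.007). With the replicate block 9 endothelial genes were higher at an unadjusted p under 0.05, against 6.15% of all genes.

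Reversals were as follows. With the capillary mean Pecam1 was at -0.057, Emcn at -0.0045, Cd34 at -0.020, Rasip1 at -0.014, Sox7 at -0.062, Sox18 at -0.35, Tek at -0.032, Podxl at -0.13 and Gata2 at 0.21. Without miR-126-/- 2 and miR-126+/+ 2 Pecam1 was at -0.075, Mmrn2 at -0.11, Rasip1 at -0.11, Sox18 at -0.064, Podxl at -0.039 and Gata2 at 0.27. Without the muscle-rich arrays Mmrn2 was at -0.0082 and Gata2 at 0.039, with the adipocyte mean Sox18 at -0.060 and Podxl at -0.050, with array weights Podxl at -0.0065, and with normexp Gata2 at 0.040. With single arrays left out Pecam1 ran from -0.024 to 0.13, Mmrn2 from -0.061 to 0.10, Rasip1 from -0.025 to 0.13, Gata2 from -0.25 to 0.20, Sox18 from -0.12 to 0.16 and Podxl from -0.031 to 0.12.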
